A study of Mus musculus with 43 samples.

Results

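Crabp1 and Rxfp1 were examined as marker genes of the arcuate nucleus (ARC). They are 2 of the 10127 genes in the table of CPM, the reads of a gene scaled to the size of its library. They were chosen by their CPM levels in these libraries, which were higher in ARC than in the other nuclei dissected, so their ARC enrichment is described here without a test. The mice were males labelled C57/BL6, and the paper on these data gives their background as C57BL/6J. Every animal was of the line B6(Cg)-Snord116tm1.1Uta/J and carried on the paternal chromosome a deletion of Snord116 present from conception. This deletion removes a paternally expressed snoRNA cluster from all cells of the body. Wild-type animals were not analysed here, so nothing below compares genotypes. Besides ARC, tissue was laser-captured from the paraventricular nucleus (PVN), the dorsomedial (DMH) and the ventromedial hypothalamus (VMH) of 12 mice, which were either fed ad libitum or fasted for 24 hours before dissection. The fasted and fed groups held 4 and 5 libraries in ARC, 5 and 5 in PVN, 5 and 6 in DMH, and 6 and 5 in VMH, 41 in all. Libraries are named by nucleus and mouse number.

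Retinoic acid, made from vitamin A, acts in the nucleus through retinoic acid receptors that bind DNA. Crabp1 encodes a small cytoplasmic protein that binds retinoic acid and takes part in its delivery and breakdown, and Rxfp1 encodes the receptor for the hormone relaxin, a leucine-rich repeat receptor that signals through G proteins and cAMP. ARC holds neurons that sense hunger and satiety signals, among them the neurons that make the appetite-stimulating neuropeptide Y (Npy), whose transcript served here as the reference for ARC tissue.

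On GRCm38, Crabp1 (ENSMUSG00000032291) lies at chr9:54764748-54773110 on the plus strand, with a single annotated transcript of 802 bases in 4 exons. Rxfp1 (ENSMUSG00000034009) lies at chr3:79641611-79737880 on the minus strand, and its coding transcript holds 5382 bases in 18 exons. Of both genes, Crabp1 matched the RefSeq table of promoter windows (GRCm38.p6, 250 bases before to 50 bases after the start of a gene), and Rxfp1 did not. The Crabp1 window, chr9:54764498-54764797 on the plus strand, is shown with those of the genes whose levels followed Crabp1 and Rxfp1 most closely across libraries, Npy (chr6:49822460-49822759, plus strand) and Cyp26b1 (chr6:84593761-84594060, minus strand). Sequences run 5′ to 3′ along the strand of the gene, and capitals mark the GC box, GGGCGG or its reverse complement CCGCCC.
Crabp1: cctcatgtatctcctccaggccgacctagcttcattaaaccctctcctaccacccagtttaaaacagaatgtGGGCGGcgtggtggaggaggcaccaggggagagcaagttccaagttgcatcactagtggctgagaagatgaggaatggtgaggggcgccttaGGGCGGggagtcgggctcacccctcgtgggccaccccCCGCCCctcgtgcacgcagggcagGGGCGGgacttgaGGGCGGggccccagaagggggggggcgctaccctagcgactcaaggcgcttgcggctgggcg
Npy: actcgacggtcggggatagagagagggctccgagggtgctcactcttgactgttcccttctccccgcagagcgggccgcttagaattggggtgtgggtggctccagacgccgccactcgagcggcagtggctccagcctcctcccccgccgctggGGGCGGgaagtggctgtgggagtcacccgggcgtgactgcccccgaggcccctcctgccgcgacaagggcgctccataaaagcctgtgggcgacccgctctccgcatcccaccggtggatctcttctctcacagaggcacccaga
Cyp26b1: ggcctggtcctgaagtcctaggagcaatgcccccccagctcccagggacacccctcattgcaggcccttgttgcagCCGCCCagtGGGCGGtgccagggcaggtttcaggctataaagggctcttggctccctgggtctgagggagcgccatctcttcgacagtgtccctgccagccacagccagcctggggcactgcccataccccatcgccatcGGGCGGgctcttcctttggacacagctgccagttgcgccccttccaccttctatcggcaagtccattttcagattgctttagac
The GC box occurred 5 times in the Crabp1 window, 3 times in that of Cyp26b1 and once in that of Npy, and 35.7% of all 32851 windows held it. The Crabp1 window was GC-rich, at 65% G and C and 17 CpG dinucleotides against medians of 52.7% and 7 over all windows. Searched on both strands, neither AGGTCA, the half-site of retinoic acid receptors (in 16.3% of windows), nor its DR5 direct repeat, which contains it (in 0.00913%), was found in any of the 3 windows. The letters TATAAA (in 13.6% of windows) occurred only in that of Cyp26b1 among the 3. These matches describe the letters of the windows and not binding.

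Crabp1 was abundant in every ARC library and low in all others. In fasted ARC it was at 229, 137, 170 and 268 CPM (ARC-100, ARC-305, ARC-311 and ARC-86), and in fed ARC at 201.3, 156, 221, 129 and 168 CPM (ARC-111, ARC-125, ARC-127, ARC-308 and ARC-313). The ARC values spanned about a doubling from ARC-308 to ARC-86, and the fasted and fed libraries overlapped. The ARC mean was 187 ± 46.4 CPM (SD, n = 9), resting on 422 to 1277 reads per library. Outside ARC the lowest, median and highest values were 0, 0.368 and 10.1 CPM in VMH, 0, 0.476 and 3.91 CPM in PVN, and 0.502, 3.06 and 8.12 CPM in DMH. DMH was thus the highest of these nuclei, with a mean of 3.42 ± 2.58 CPM (n = 11) against 0.857 ± 1.12 in PVN (n = 10) and 1.59 ± 2.95 in VMH (n = 11). No library outside ARC reached the ARC range: the lowest ARC library was 12.8 times the highest other library, VMH-101, and the ARC mean was 93.9 times the mean of the other 32 libraries. Crabp1 was at 0 in 1 PVN and 2 VMH libraries, where a count of 0 allows between 0.507 and 0.815 CPM by counting error alone.

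Rxfp1 was likewise highest in ARC, at lower CPM, and its mean was not higher in DMH than in PVN or VMH. In fasted ARC it was at 16.8, 14.7, 23.3 and 11.6 CPM (ARC-100, ARC-305, ARC-311 and ARC-86), and in fed ARC at 20.3, 15.4, 24.6, 11.4 and 30.8 CPM (ARC-111, ARC-125, ARC-127, ARC-308 and ARC-313). Fasted and fed libraries overlapped here too, with the lowest and the highest value both among the fed mice. The ARC mean was 18.8 ± 6.53 CPM (n = 9), from 38 to 194 reads per library. The lowest, median and highest values were 0, 0.679 and 4.80 CPM in VMH, 0, 0.210 and 2.86 CPM in PVN, and 0, 0.263 and 1.87 CPM in DMH. The means, 0.948 ± 1.34, 0.582 ± 0.920 and 0.528 ± 0.524 CPM in that order, differed by less than the SD of the VMH values. The lowest ARC library was 2.37 times the highest other library, VMH-100, and the ratio of the ARC mean to the mean outside ARC was 27.2. Rxfp1 was at 0 in 1 DMH, 4 PVN and 2 VMH libraries, a count that allows between 0.567 and 1.15 CPM, so much of its range outside ARC lies at 1 to 5 reads. In these bulk samples, a smaller share of expressing cells and less RNA per cell cannot be told apart.

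**Figure D1:**
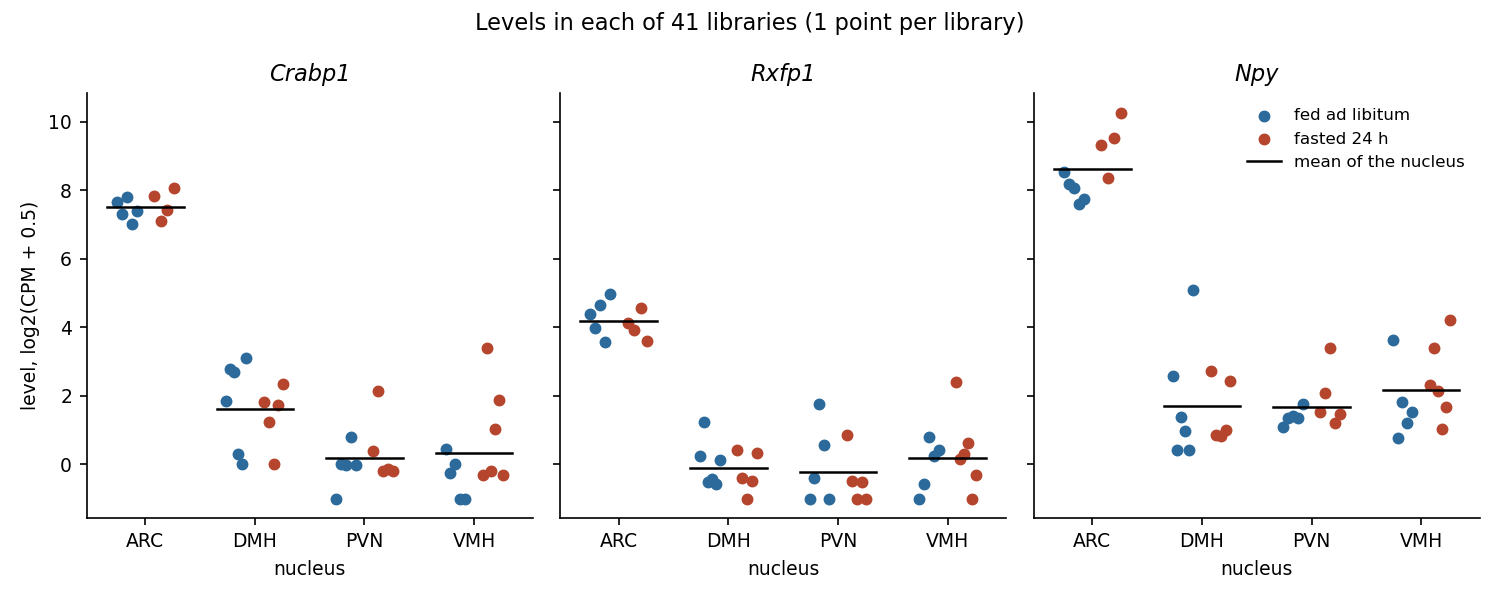
Level of Crabp1, Rxfp1 and Npy as log2(CPM + 0.5) in each of 41 libraries, by nucleus on the x axis, with fed libraries in blue, fasted libraries in red and a line at the mean of each nucleus. For all 3 genes every ARC point lies above every point of DMH, PVN and VMH, with the smallest gap for Rxfp1 between 11.4 CPM in ARC and 4.80 CPM in VMH.

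Per kilobase of transcript, the scale on which levels of different genes can be compared, the ARC means were 233 ± 57.9 CPM per kb for Crabp1, 3.49 ± 1.21 for Rxfp1 and 836 ± 597 for Npy. Within single mice, ARC exceeded the mean of the same animal's other nuclei by 6.44 to 7.74 on the log2(CPM + 0.5) scale for Crabp1 (median 7.21), by 2.88 to 5.35 for Rxfp1 (median 3.98) and by 6.10 to 8.43 for Npy, over 9 mice. The direction was the same in every mouse. Ranked by the difference of ARC from the other 3 nuclei on that scale, Npy (6.91 ± 0.32, SE), Crabp1 (6.89 ± 0.34) and Rxfp1 (4.26 ± 0.33) were the first 3 of 10121 genes. These ranks hold among measured genes only, since the table lacks many annotated genes, with 6725 in its largest gap of gene identifiers. The next genes were Cyp26b1 at 4.04 and Fndc3c1 at 3.75, so Rxfp1 and the first gene outside the selection differed by less than the SE of either.

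The dissection was checked against defining markers. Of 17 listed ARC neuron markers 5 were measured (Npy, Th, Lepr, Ghsr and Isl1), and their summed CPM was 21.0 to 56.6 in VMH, 30.5 to 102 in PVN and 65.3 to 182 in DMH, against 354 to 1524 in ARC. Most of the ARC sum was Npy, at 473 ± 338 CPM. Without Npy the markers set ARC and DMH less apart: Th, Lepr and Ghsr overlapped between libraries of both nuclei. Isl1 did not overlap, at 51.1 to 91.1 CPM in ARC and 9.98 to 42.7 CPM in DMH. In ARC the measured VMH markers Fezf1 and Sox14 summed to 2.13 to 12.4 CPM (192 to 270 in VMH), the PVN markers Avp and Crh to 1.27 to 10.04 CPM (426 to 1600 in PVN), and the DMH markers Npvf and Gpr50 to 18.9 to 106 CPM (200 to 338 in DMH). Nearly all of the latter sum in ARC was Gpr50, which is also on the tanycyte list (52.3 ± 25.3 CPM in ARC), whereas Npvf was at 0.253 ± 0.176 CPM in ARC and 95.2 ± 48.4 CPM in DMH. Tanycyte markers, of which 6 of 10 were measured, summed to 134 to 366 CPM in ARC, 227 to 390 CPM in DMH, 89.9 to 156 CPM in PVN and 99.5 to 207 CPM in VMH. Library depth, read from the CPM value of a single read, was 1.94 to 8.23 M reads with a median of 4.10 M. It is the read total behind the CPM scale, and the paper reports a larger average number of sequenced reads per sample.

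Among the other 3 nuclei Crabp1 was highest in DMH. In the model over all 41 libraries (limma, batch as covariate, mouse as random block), Crabp1 was higher in DMH than in PVN by 1.42 ± 0.39 on the log2(CPM + 0.5) scale (SE, adjusted p = 0.00792) and higher than in VMH by 1.33 ± 0.38 (adjusted p = 0.00800). PVN and VMH were not separated (-0.09 ± 0.39, 95% interval -0.87 to 0.69, adjusted p = 0.904). Differences between nuclei were frequent in the whole table: 18.0% of genes were called for DMH against PVN, 23.3% for DMH against VMH and 31.2% for PVN against VMH. DMH was the higher nucleus in 8 of 10 mice against PVN and in 9 of 10 mice against VMH. The exception against VMH was the mouse of VMH-101, the library that held the highest Crabp1 outside ARC. By batch, DMH exceeded PVN by 3.02, 1.51 and 0.40 and VMH by 1.75, 1.43 and 0.80 in batches 1, 2 and 3, so the sign held in each batch and the size was lowest in the third.

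For Rxfp1, which reached 1 CPM in 1 library of DMH, 2 of PVN and 3 of VMH, no order among these nuclei was resolved. The difference was 0.15 ± 0.38 for DMH against PVN (95% interval -0.61 to 0.91, adjusted p = 0.853), -0.28 ± 0.37 for DMH against VMH (-1.02 to 0.47, adjusted p = 0.680) and -0.43 ± 0.38 for PVN against VMH (-1.19 to 0.33, adjusted p = 0.448), all by limma. A p that misses the threshold does not show that these levels are equal. The order of levels was thus ARC, then DMH, then PVN and VMH unseparated for Crabp1, and ARC followed by 3 unseparated nuclei for Rxfp1.

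Npy, the ARC reference, did not share the DMH position of Crabp1. Its difference was -0.05 ± 0.37 for DMH against PVN and -0.43 ± 0.36 for DMH against VMH (limma, adjusted p = 0.958 and 0.468). DMH was the higher nucleus in 3 and 1 of 10 mice. By batch, DMH minus PVN was 2.08, -0.24 and -1.12 and DMH minus VMH 0.19, -0.73 and -0.67 for Npy in batches 1, 2 and 3. In batch 1, which holds DMH-92, the direction was thus that of Crabp1. Without DMH-92, the library highest in Npy outside ARC, the mean in DMH was 1.58% of the ARC mean for Crabp1, 2.78% for Rxfp1 and 0.546% for Npy. With it the shares were 1.83%, 2.81% and 1.14%, so that of Npy rested on this library. The summed ARC neuron markers also ranged higher in DMH than in PVN or VMH (above). Th of that list, the dopamine-synthesis enzyme, had a mean in DMH within 1 SD of that in ARC and PVN, at 56.8 ± 22.5 CPM in DMH, 42.8 ± 17.7 in PVN, 1.76 ± 1.92 in VMH and 49.6 ± 18.8 in ARC. The other 4 markers summed to 39.7 to 104 CPM in DMH, beside 21.0 to 55.1 CPM in VMH and 9.52 to 24.4 CPM in PVN. Their part in the Crabp1 difference was not tested. The higher tanycyte sum in DMH came from Gpr50, which is also a DMH marker (169 ± 43.7 CPM in DMH). Without Gpr50 the tanycyte markers had mean sums of 122 CPM in DMH, 122 in PVN, 154 in VMH and 182 in ARC. DMH-92, with the highest Npy outside ARC (33.4 CPM), also had the highest Crabp1 of DMH (8.12 CPM), whereas DMH-125 had 6.44 CPM of Crabp1 with 0.831 CPM of Npy. VMH-101 had 10.1 CPM of Crabp1 and 10.1 CPM of Npy, and VMH-86 had 0.306 CPM of Crabp1 with 18.1 CPM of Npy. High Crabp1 outside ARC therefore came with high Npy in some libraries and without it in others. Over the 32 libraries outside ARC Pearson's r with Npy was 0.28 for Crabp1 and 0.0094 for Rxfp1, and r between both genes was 0.075, given as a description of libraries that share mice and mostly hold few reads of these genes.

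**Figure D2:**
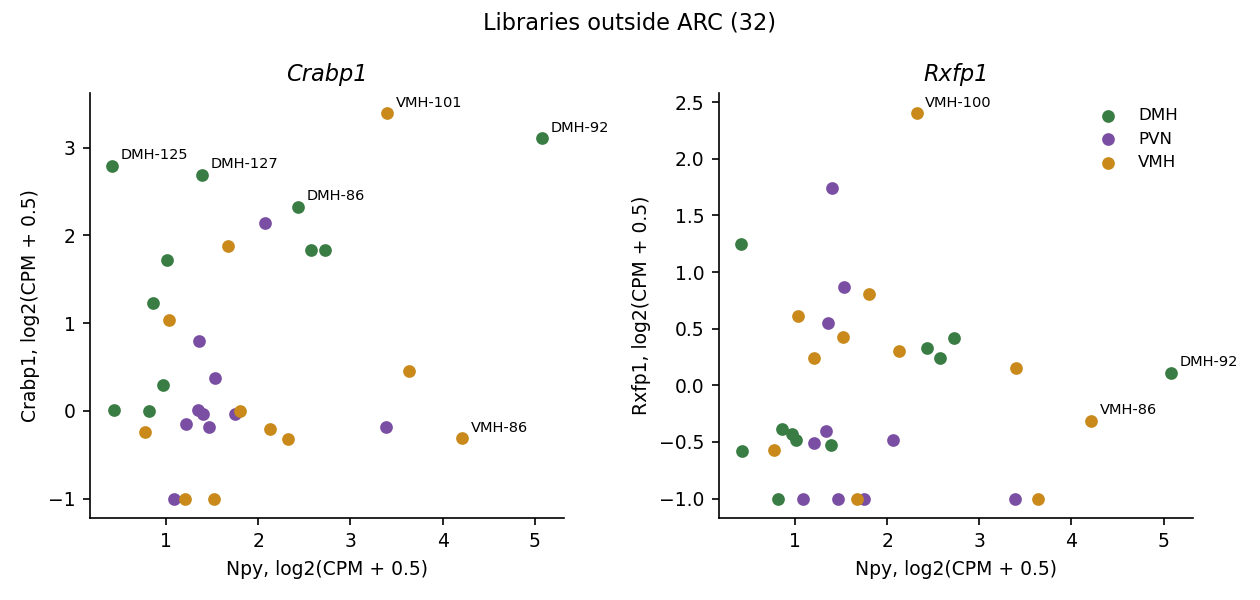
Crabp1 (left) and Rxfp1 (right) against Npy, all as log2(CPM + 0.5), in the 32 libraries from DMH, PVN and VMH, coloured by nucleus. The 2 libraries highest in Crabp1, VMH-101 and DMH-92, also lie high in Npy, whereas DMH-125 lies high in Crabp1 and low in Npy, and VMH-100 is the highest in Rxfp1.

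Within ARC, Crabp1 differed by batch. Its mean was 235 ± 47.5 CPM in batch 1 (n = 2), 202 ± 39.8 in batch 2 (n = 3) and 151 ± 21.2 in batch 3 (n = 4). The batch term of the limma model passed the threshold (adjusted p = 0.0824), as it did for 6.36% of the genes tested in ARC. For Npy the batch term passed too (limma, adjusted p = 0.0145). Its batch means ran in the same order, at 798 ± 605, 398 ± 207 and 367 ± 250 CPM. For Rxfp1 the batch means were 15.9 ± 6.15, 19.0 ± 4.97 and 20.1 ± 8.77 CPM, in the opposite order, and the batch term did not pass (adjusted p = 0.937). The coefficient of variation across ARC libraries was 24.9% for Crabp1 and 34.8% for Rxfp1. Counting error alone, at their median read numbers, would give 3.37% and 13.1%.

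The relation of both genes to Npy was examined across the 9 ARC libraries. Npy was at 636, 326, 732 and 1226 CPM in the fasted libraries ARC-100, ARC-305, ARC-311 and ARC-86, and at 370, 288, 269, 195 and 214 CPM in the fed libraries ARC-111, ARC-125, ARC-127, ARC-308 and ARC-313. Crabp1 and Npy were both highest in ARC-86 and both lowest in ARC-308. Pearson's r of their log2 levels was 0.67 (exact permutation p = 0.0502, adjusted over 3 relations 0.151) and Spearman's rho 0.67 (exact permutation p = 0.0589, adjusted 0.177), so the relation did not pass the threshold of 0.1. Without ARC-86 and ARC-311, the libraries farthest from the median of Npy, r was 0.62 (n = 7, exact permutation p = 0.133). After batch and feeding state were removed from both genes, r was 0.47 (permutation of residuals, approximate p = 0.206). Single libraries moved the call: without ARC-311 r was 0.77 (exact permutation, adjusted p = 0.0552) and without ARC-127 it was 0.80 (adjusted p = 0.0560), whereas without ARC-86 it was 0.45 (adjusted p = 0.400). Single batches held 2 to 4 ARC libraries and single feeding states 4 or 5, and no correlation was computed within them. Of the 7550 other genes compared, 10.95% had an r with Crabp1 across the ARC libraries at least as far from 0 as that of Npy.

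For Rxfp1 no relation to Npy was resolved across these libraries. Its r with Npy was -0.25 (exact permutation p = 0.515, adjusted 0.773) and rho -0.10 (p = 0.810, exact permutation). ARC-86, with the most Npy, had among the lowest Rxfp1, at 11.6 CPM, and ARC-313, with the most Rxfp1, had 214 CPM of Npy. The sign was not stable: r was -0.076 without ARC-86 and ARC-311 and 0.12 without ARC-86 alone. After batch and feeding state were removed it was 0.28 (permutation of residuals, approximate p = 0.471). Crabp1 and Rxfp1 themselves had r = 0.095 (exact permutation p = 0.803) and rho = 0.25. After batch and feeding state were removed their r was 0.64 (permutation of residuals, approximate p = 0.0634, adjusted 0.190). Rxfp1 per 100 CPM of Crabp1 ranged from 4.30 in ARC-86 to 18.3 in ARC-313. The ratio of both genes was thus not constant across ARC libraries.

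**Figure D3:**
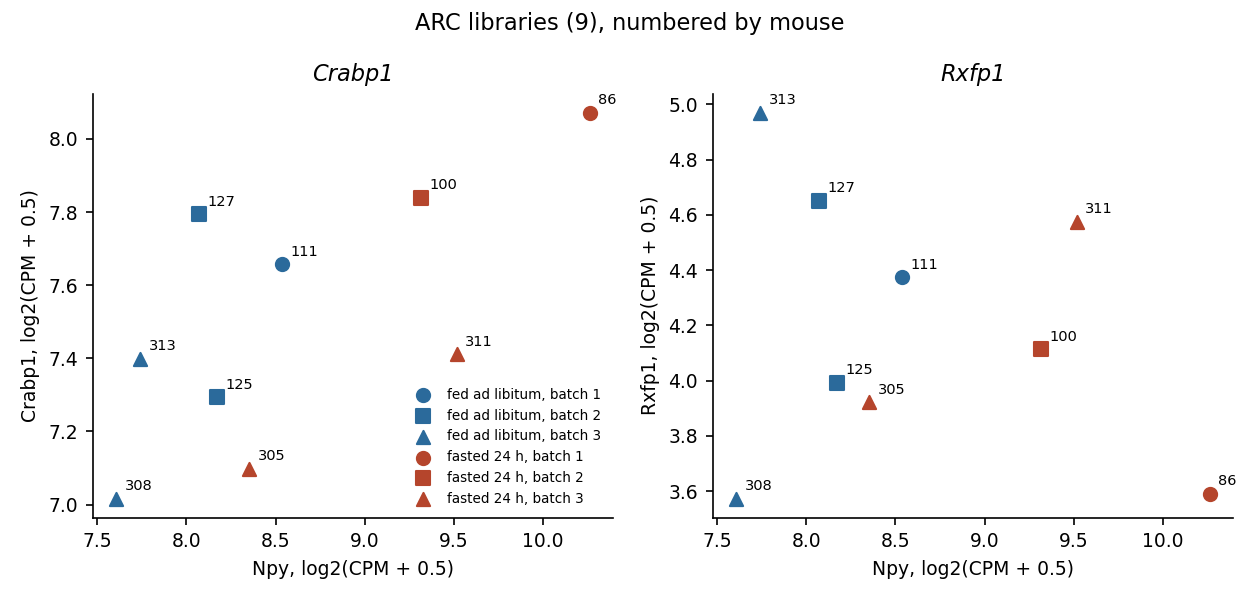
Crabp1 (left) and Rxfp1 (right) against Npy, as log2(CPM + 0.5), in the 9 ARC libraries, numbered by mouse, with colour for feeding state and marker shape for batch. For Crabp1 r was 0.67 (adjusted p = 0.151 by exact permutation), with the triangles of batch 3 lowest on average, and for Rxfp1 it was -0.25.

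Fasting raised Npy in ARC but did not detectably change either marker gene. Npy rose from 267 ± 69.4 CPM in fed (n = 5) to 730 ± 373 CPM in fasted mice (n = 4), by 1.35 ± 0.16 on the log2 scale (SE, limma, adjusted p = 0.00114), and 0.176% of the 9654 genes tested were called. Without batch as covariate 0 genes were called in ARC, so the call of Npy is lost there, although the difference between its mean log2 levels, 9.36 in fasted and 8.03 in fed mice, was 1.33 without that covariate. Crabp1 was at 175 ± 36.6 CPM in fed and 200.8 ± 59.0 CPM in fasted ARC, a difference of 0.21 ± 0.14 on the log2 scale (95% interval -0.09 to 0.51, adjusted p = 0.706). Rxfp1 was at 20.5 ± 7.62 CPM in fed and 16.6 ± 4.99 CPM in fasted ARC, a difference of -0.25 ± 0.35 (95% interval -0.98 to 0.47, adjusted p = 0.871). Leaving out 1 library at a time, the Rxfp1 difference ran from -0.55 (without ARC-308) to -0.043 (without ARC-313), with an adjusted p of 0.728 to 0.986, and that of Crabp1 from 0.14 (without ARC-125) to 0.31 (without ARC-313). For Crabp1 the interval lies below the Npy change throughout, and for Rxfp1 its upper end lies below the lower end of the Npy interval, 1.00. By batch the Crabp1 difference was 0.41, 0.30 and 0.047 and the Rxfp1 difference -0.78, -0.21 and -0.022 in batches 1, 2 and 3, each from 1 or 2 libraries a side. The signs were thus the same in each batch, opposite for both genes, and close to 0 in the third.

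Outside ARC the fasting differences rested on few reads. In DMH, where 0.0103% of genes were called, Crabp1 was at 2.55 ± 1.49 CPM in fasted and 4.14 ± 3.18 CPM in fed mice, a difference of -0.22 ± 0.56 (adjusted p = 0.974). The other values come from genes below the CPM filter and were taken from the fit without it. Crabp1 was at 1.17 ± 1.54 and 0.540 ± 0.444 CPM in fasted and fed PVN (0.45 ± 0.56, adjusted p = 0.854) and at 2.62 ± 3.81 and 0.344 ± 0.368 CPM in fasted and fed VMH (1.23 ± 0.68, adjusted p = 0.782). The PVN difference was 0.054 without PVN-101 and 0.73 without PVN-308, and the VMH difference 0.64 without VMH-101. The fasted VMH mean was carried by VMH-101 at 10.1 CPM, with the other fasted VMH libraries between 0.3002 and 3.17 CPM. For Rxfp1 the differences were -0.18 ± 0.58 in DMH, -0.40 ± 0.58 in PVN and 0.57 ± 0.60 in VMH (adjusted p = 0.979, 0.882 and 0.930). Leaving out 1 library at a time gave -0.72 (without PVN-125) to -0.060 (without PVN-127) in PVN and 0.16 (without VMH-100) to 0.81 (without VMH-101) in VMH. A test of whether the fasting change differed between the 4 nuclei (limma, moderated F) gave adjusted p = 0.962 for Crabp1 and 0.989 for Rxfp1. It called 0 of 10121 genes (0.00%), with 517 genes at an unadjusted p under 0.05. No second tool was run for it.

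**Figure D4:**
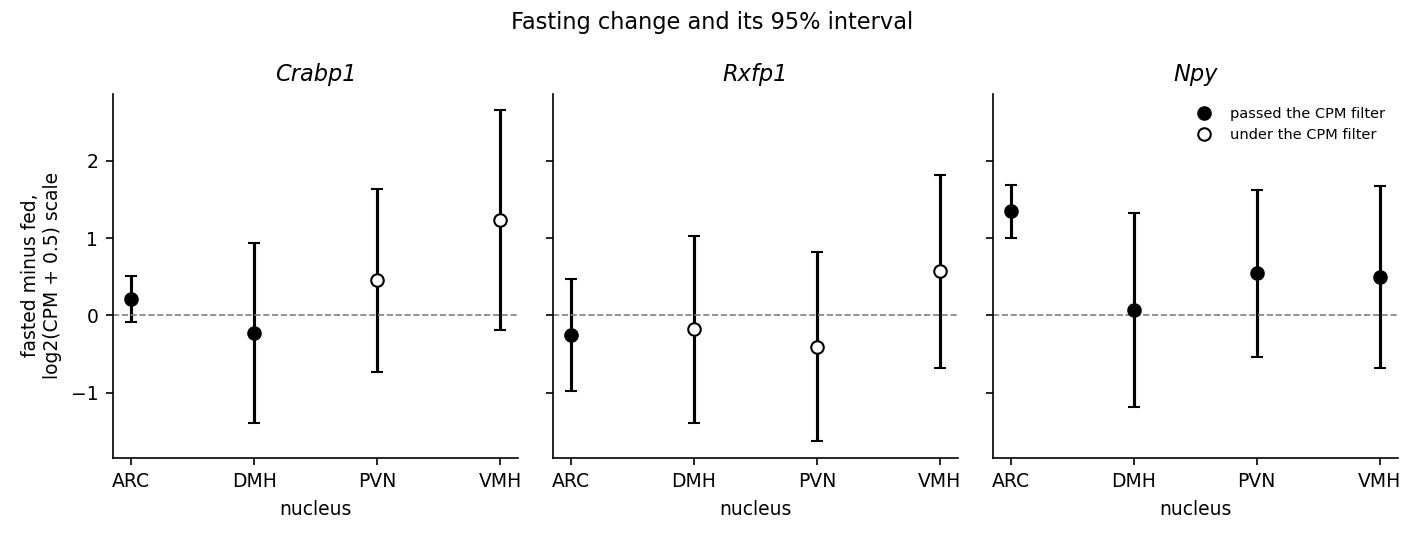
Fasting change (fasted minus fed, log2(CPM + 0.5) scale) of Crabp1, Rxfp1 and Npy in each nucleus, with points for the limma estimate and bars for its 95% interval. Open points are genes under the CPM filter in that nucleus. Every Crabp1 and Rxfp1 interval includes 0, and the Npy interval in ARC, 1.00 to 1.69, does not.

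The genes most like Crabp1 over all 41 libraries (Pearson's r of log2 levels, 8273 genes compared) were Npy at 0.91, Rxfp1 at 0.86, Irs4 at 0.85, Cyp26b1 at 0.84 and Prune2 at 0.83. Those most like Rxfp1 were Cyp26b1 at 0.87, Crabp1 at 0.86, Npy at 0.86, Irs4 at 0.85 and Prune2 at 0.83. Both lists hold the same genes besides the pair itself. Since both genes were chosen as higher in ARC, these r values largely repeat that choice and are given as a description. Within the 9 ARC libraries alone the values were different. There r with Crabp1 was -0.87 for Irs4, -0.66 for Prune2 and -0.32 for Cyp26b1, and r with Rxfp1 was -0.021, 0.23 and 0.17. Cyp26b1, an enzyme that breaks down retinoic acid, was at 14.3 ± 3.84 CPM in ARC, against 0.499 ± 0.653 in VMH, 0.121 ± 0.179 in PVN and 1.14 ± 1.31 in DMH. Irs4, an adaptor of insulin and growth factor receptors, was at 855 CPM in ARC and at 209 to 301 CPM elsewhere, and Prune2 at 523 CPM in ARC and at 163 to 235 CPM elsewhere. Irs4 and Prune2 were thus higher in ARC but well expressed in every nucleus, unlike Crabp1 and Rxfp1.

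Of 40 listed genes of retinoid handling 11 were measured, Crabp1 among them. In ARC against the other nuclei 3 of the other 10 were higher and 0 lower (limma), beside 9.73% of all genes called higher and 11.7% lower, and the median difference was 0.52 against -0.0018 over all genes tested. Those higher were Cyp26b1 by 4.04 ± 0.32 (adjusted p = 1.74e-14), Adh7, an alcohol dehydrogenase that oxidises retinol, by 1.77 ± 0.42 (adjusted p = 0.00138), and Ttr, a carrier of thyroxine and retinol-binding protein, by 1.31 ± 0.38 (adjusted p = 0.01003). Adh7 was at 6.15 ± 4.90 CPM in ARC and Ttr at 3.34 ± 2.99, both with a spread close to the mean. The list was chosen with earlier results of these data known, so these counts and p-values are no independent support for an ARC enrichment. The retinoic acid-synthesising enzyme Aldh1a1 was at 25.7 ± 12.3 CPM in ARC and 11.7 to 29.1 CPM elsewhere (0.48 ± 0.27, adjusted p = 0.260). The receptors Rara (0.55 ± 0.26, adjusted p = 0.148) and Rxrb (-0.11 ± 0.22, adjusted p = 0.822) did not pass. In DMH against PVN, where Crabp1 was higher and 18.0% of all genes were called, Cyp26b1 (1.17 ± 0.37, adjusted p = 0.0234), Aldh1a1 (0.80 ± 0.32, adjusted p = 0.0893) and Rara (0.75 ± 0.30, adjusted p = 0.0928) were also higher and Adh7 lower (-1.34 ± 0.48, adjusted p = 0.0556). In DMH against VMH, where Crabp1 was also higher and 23.3% were called, these genes did not pass: Cyp26b1 differed by 0.68 ± 0.36 (adjusted p = 0.202), Aldh1a1 by -0.59 ± 0.31 (adjusted p = 0.201), Rara by 0.083 ± 0.29 (adjusted p = 0.891) and Adh7 by -0.47 ± 0.47 (adjusted p = 0.568). There Ttr was higher (1.22 ± 0.43, adjusted p = 0.0357) and Rdh11, which reduces retinal, lower (-0.75 ± 0.30, adjusted p = 0.0820). With fasting, 0 genes of the list were called in any nucleus by limma, which called 0.176% of all genes in ARC, 0.0103% in DMH, 0.0208% in VMH and 0.367% in PVN. At an unadjusted p under 0.05 the list had 2 genes each in ARC and PVN, and 1 each in VMH and DMH, beside 782 of 9654 genes tested in ARC, 950 of 9529 in PVN, 670 of 9594 in VMH and 646 of 9751 in DMH. The smallest p in ARC was that of Stra6, the uptake receptor for retinol, at 0.0447 ± 0.0895 CPM in fasted and 4.02 ± 2.96 CPM in fed mice (unadjusted p = 0.000547, adjusted p = 0.211 by limma); Stra6 reached 1 CPM in 5 fed and 0 fasted ARC libraries, so it passed the filter on low values there through the fed group alone, and its p is no independent sign of a difference. Next was Rara at 12.7 ± 6.43 and 27.5 ± 6.78 CPM (unadjusted p = 0.00325, adjusted p = 0.396). In DMH Stra6 was at 1.38 ± 1.51 CPM in fasted and 6.99 ± 7.09 CPM in fed mice (adjusted p = 0.727). In PVN the order of Stra6 was the opposite, at 5.72 ± 5.58 CPM in fasted and 1.07 ± 1.44 CPM in fed mice (adjusted p = 0.290), as was that of Rara in VMH (19.7 ± 6.93 and 10.9 ± 6.37 CPM, adjusted p = 0.641), and the test for a difference of the fasting change between nuclei called no gene. In ARC the fasted and fed values of Rara did not overlap, as for 2.13% of the genes tested.

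Of 31 listed genes of relaxin signalling, a list likewise chosen with earlier results of these data known, 9 were measured, Rxfp1 among them. Of the other 8, 1 was higher and 2 were lower in ARC, beside 9.73% and 11.7% of all genes, and the median difference was -0.0056 against -0.0018 over all genes tested. Rxfp2, the receptor for insulin-like peptide 3, was higher by 1.65 ± 0.40 (adjusted p = 0.00187), at 4.85 ± 3.67 CPM in ARC and 0.637 to 2.74 CPM elsewhere. Rxfp3, the receptor for relaxin-3, was lower by 2.64 on the log2 scale (SE 0.31, adjusted p = 1.90e-09). It was highest in PVN at 33.4 ± 7.74 CPM, against 8.90 ± 4.86 in DMH, 7.63 ± 5.53 in VMH and 1.98 ± 1.52 in ARC. Rxfp1 and Rxfp3 thus had opposite positions, with the ARC highest for the former and lowest for the latter. Gnao1, the abundant neuronal G protein subunit, was lower by 0.18 on the log2 scale (SE 0.060, adjusted p = 0.0311). With quantile normalization, and also without mouse 100, only 1 gene of the list was called lower in ARC. The only measured ligand of the family, Insl5, was at 1.51 ± 1.22 CPM in ARC and did not pass (0.051 ± 0.43, adjusted p = 0.959). With fasting, 0 genes of the list were called in any nucleus by limma and 0 were at an unadjusted p under 0.05, of 8 tested in ARC, 6 in DMH and 7 each in PVN and VMH. The shares over all genes given above are low enough that counts of 0 among so few genes do not set the list apart.

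**Figure D5:**
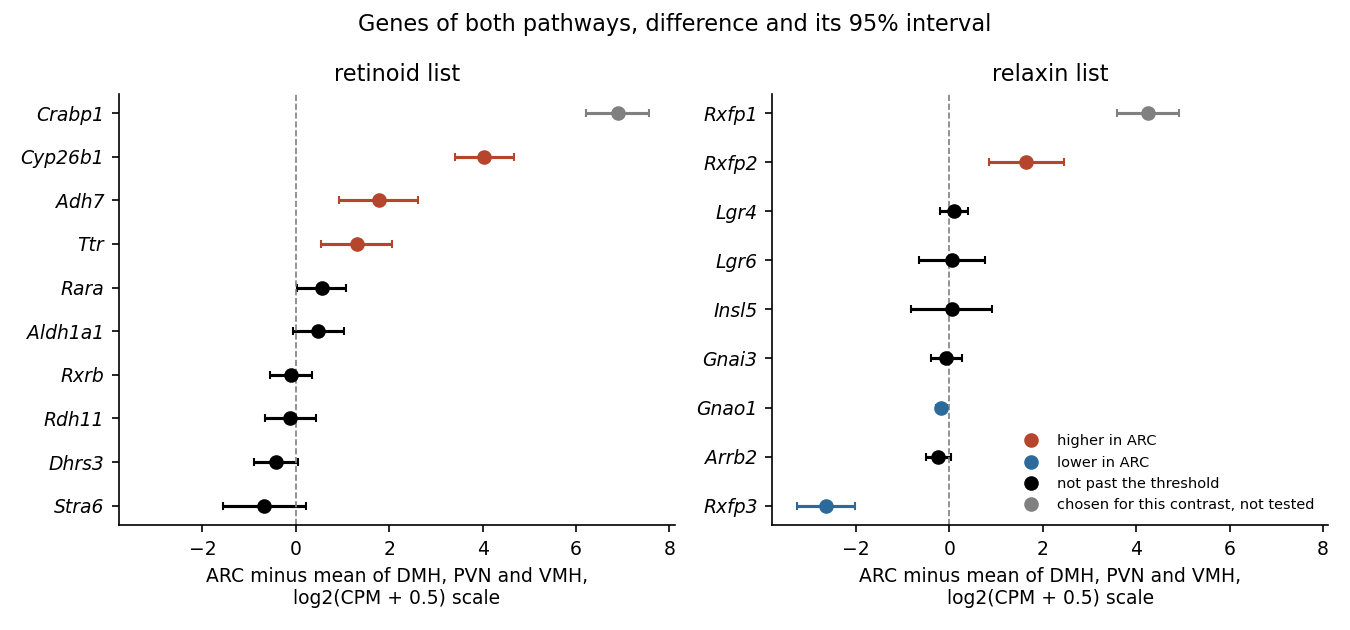
Difference in level between ARC and the mean of DMH, PVN and VMH (log2(CPM + 0.5) scale) for measured genes of the retinoid list (left, 10 of 11 shown) and the relaxin list (right), with the limma 95% interval. Cyp26b1 at 4.04 and Rxfp3 at -2.64 lie farthest from 0 among the genes tested, and Crabp1 and Rxfp1, in grey, were chosen for this contrast.

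Genes near Crabp1 were also compared. Of 11 measured genes whose start lies within 300 kb of that of Crabp1, 0 were called higher in ARC by limma and 4 were lower, namely Dmxl2 (-0.24 ± 0.058), Idh3a (-0.46 ± 0.11), Hykk (-0.50 ± 0.21) and the nicotinic receptor subunit gene Chrna3 (-1.35 ± 0.35). Over all genes 9.73% were called higher and 11.7% lower, so the absence of a higher neighbour among 11 is near the background. The nearest, Wdr61, whose annotated start lies 30.2 kb away, differed by -0.10 ± 0.13 (adjusted p = 0.664). Near Rxfp1 the only measured gene was Fnip2, at -0.0039 ± 0.18 (adjusted p = 0.993).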

How the data were processed

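The authors deposited CPM values (counts scaled to the size of the library) from amplified RNA. The submitters' processing notes name CASAVA 1.7, TopHat2 2.0.11, Cufflinks 2.2.1 and GRCm38; the read counter and its use of strand are not given in the sources used here. Of 43 samples 2 were not analysed here, and 2 columns whose names matched no sample were not used. These columns are named ARC and the samples not analysed are labelled PVN, with the same mouse numbers, so the nucleus of these libraries is unresolved and neither group includes them. The table held 10127 genes and summed to 554896 to 689010 CPM per library. Low values were 97.7% to 98.8% whole multiples (within 0.1) of 1 step per library, taken as 1 read; 101 genes held values under 0.01 CPM, so no count test was run. Limits for a count of 0 use 3 reads and cover counting error only.

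Levels were tested with limma 3.58.1 (R 4.3.3) on log2(CPM + 0.5), a scale that understates changes of low genes. Fasted and fed libraries were compared within nuclei, with batch as labelled (3 batches) as covariate, for genes at 1 CPM or more in at least the number of libraries of the smaller group. Nuclei were compared over 41 libraries with 8 group means, batch and mouse as random block, since each mouse gave several nuclei. Benjamini-Hochberg adjustment covered all genes tested (threshold 0.1). Correlations used exact two-sided permutation tests. After batch and state were removed the permutation p is approximate, since the residuals are not independent of each other.

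Both genes and the gene lists were chosen with earlier results of these data known. Genes named are these, Npy, list genes past a test or needed to place them, the 5 genes most like each and neighbours within 300 kb; Fndc3c1 and Stra6 were named after their values were seen, and 1 gene of the retinoid list is not reported here. Alternatives were the pseudocount (0.1, 2), the filter (none, 5 CPM), median centring, quantile normalization, no batch, library weights, depth as covariate, the mouse block and leaving out each library or mouse.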

Additional observations from a re-analysis of the deposited data

Results flagged for a closer look

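In 5 of 16 groups of 4 to 6 libraries, a library stood apart from the others of its group by Dixon's criterion, which chance meets in about 1 of 20 groups of independent, normally distributed values. The counts here are low and skewed and the groups share mice, so that rate need not hold. All 5 lay outside ARC, at 5 to 33 reads. For Crabp1 these were PVN-101 (fasted) at 3.91 CPM and VMH-101 (fasted) at 10.1 CPM, the highest library of either nucleus. For Rxfp1 they were DMH-125 (fed) at 1.87 CPM, PVN-100 (fasted) at 1.33 CPM and VMH-100 (fasted) at 4.80 CPM. PVN-101 and VMH-101 are from the same mouse, as are PVN-100 and VMH-100. The former mouse had no ARC library here, and DMH-101 held 1.84 CPM of Crabp1. ARC-100 and DMH-100 held 16.8 and 0.834 CPM of Rxfp1. Without the mouse of VMH-101, Crabp1 remained higher in DMH than in PVN and VMH, as it did without any other single mouse.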

How the results depend on the processing

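Crabp1 stayed higher in DMH than in PVN (0.81 to 1.95) and than in VMH (0.71 to 2.00) past the threshold under all 10 alternatives and without any single mouse. The correlation of mouse in the block was -0.0032; with no replicate block these differences were 1.42 and 1.33, with the replicate block as fixed mouse effects 1.30 and 1.29, and neither changed a call on either gene. Fasted and fed mice are different animals, so no pairing was possible within a nucleus. No alternative called a fasting change of Crabp1 or Rxfp1 in any nucleus. Signs turned, uncalled throughout, for Crabp1 with fasting in DMH (0.041 with depth as covariate), Crabp1 in PVN against VMH (0.054 with a pseudocount of 0.1), Rxfp1 in DMH against PVN (-0.040 with quantile normalization) and r of Rxfp1 with Npy (0.28 after batch and state). The relaxin genes lower in ARC were 1 with quantile normalization. The retinoid genes higher in ARC, 3 in the main fit, were 2 with the filter at 5 CPM. They were 4 with quantile normalization, depth as covariate or fixed mouse effects, and 3 to 4 without single mice. Genes called with fasting numbered 35 in PVN, 17 in ARC, 2 in VMH and 1 in DMH. Without batch they were 3, 0, 1 and 0. They were 4 in ARC with a pseudocount of 0.1 and 5 without the filter; with library weights 79 in PVN, 5 in VMH and 2 in DMH; with depth as covariate 55, 1 and 0. The causes were not tested. Leaving out single libraries or mice gave 2 to 31 calls in PVN, 3 to 23 in ARC, 1 to 5 in VMH and 1 to 2 in DMH; -0.60 to 0.0028 for Crabp1 and -0.41 to 0.097 for Rxfp1 with fasting in DMH; -0.27 to 0.14 for Crabp1 in PVN against VMH; -0.018 to 0.43 for Rxfp1 in DMH against PVN; 1 to 2 relaxin genes lower in ARC; and r of 0.45 to 0.80 for Crabp1 with Npy, -0.58 to 0.12 for Rxfp1 with Npy and -0.21 to 0.53 for Crabp1 with Rxfp1. Outside ARC a few reads per library limit both genes.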
